A study of Mus musculus with 4 samples.

Results

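The genes described here are 10 genes of smooth muscle contraction: *Myh11*, *Mylk*, *Myl9*, *Acta2*, *Acta1*, *Tpm1*, *Tpm2*, *Cnn1*, *Tagln* and *Des*. They were chosen by name for their known roles and looked up by symbol in the count table, and all 10 were found among its 16892 genes. The cells came from FVB/NJ mice (FVB in the labels) aged 10 to 12 weeks, with no treatment or engineered allele given. Tissue of 4 mice, 8 pieces of each region, was pooled by region and made into 1 single-cell library each for the caput, corpus and cauda of the epididymis and for the vas deferens. The libraries held 1433, 2325, 1616 and 3506 cells in that order, with medians of 1599, 1433, 1741.5 and 2207 unique molecular identifiers (UMIs, each counting 1 captured RNA molecule) per cell.

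The deposited annotation puts the 8880 cells into 34 populations. Muscle appears there under 2 names, a population called Muscle (262 cells, muscle 1 below) and another called MuscleGfra4 (240 cells, muscle 2 below). The stromal population deposited as Connective, 975 cells that hold muscle genes beside collagen genes, is called myofibroblasts here. A level is given as UPM, the UMIs of a gene per 1000000 UMIs of all genes in a group of cells, with a 95% interval for counting error only. Each region is 1 library, so region, pool and library cannot be told apart and no test across animals is possible. The populations were also clustered on these counts and named in part from genes of this list, so differences between populations are descriptions.

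Smooth muscle shortens when calcium activates myosin light chain kinase, which phosphorylates the regulatory light chain and lets myosin pull on actin filaments. Tropomyosins, calponin and transgelin lie along those filaments, and desmin filaments tie the apparatus together and to the cell surface. In the male tract, thin layers of contractile cells around the epididymal tubule move luminal fluid and sperm along, while the thick muscular coat of the vas deferens contracts at ejaculation. Myofibroblasts are stromal cells that combine matrix production with part of this apparatus.

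Many smooth muscle genes carry CArG boxes, DNA sites bound by serum response factor, near their starts of transcription. RefSeq promoters (GRCm38.p6) were found for 8 of the 10 genes, and *Myh11* and *Tagln* had no entry. A CArG box in its strict form, CC and GG with 6 letters A or T between them, was read in 2 of these 8, within 250 bases before and 50 after the start, against 1.81% of 27025 genes. A second form, added after the first reading, has exactly 1 of the 6 inner letters as C or G, so strict matches are not counted in it. It was read in 3 of 8, against 9.69% of genes. The sequences with these matches are printed 5′ to 3′ on the strand of the gene, with every match of either form in capitals. The strict matches begin 73 bases before the start of *Acta1* and 161 bases before that of *Myl9*. For *Acta2* only 30 bases around each match are given, since both lie inside the gene as RefSeq draws it. A match is a run of letters, not evidence that a factor binds there.
Acta1, chr8:123894776-123895025, minus strand: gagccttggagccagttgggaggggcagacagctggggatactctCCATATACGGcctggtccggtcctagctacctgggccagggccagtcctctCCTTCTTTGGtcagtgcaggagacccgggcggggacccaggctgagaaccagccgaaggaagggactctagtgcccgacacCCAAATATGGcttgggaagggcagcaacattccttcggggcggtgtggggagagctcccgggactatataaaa
Myl9, chr2:156775214-156775407, plus strand: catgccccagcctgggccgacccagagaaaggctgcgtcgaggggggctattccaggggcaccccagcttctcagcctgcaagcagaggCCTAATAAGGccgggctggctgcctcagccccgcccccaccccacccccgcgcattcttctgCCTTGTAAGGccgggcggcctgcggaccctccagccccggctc
Acta2, chr19:34255438-34255467, minus strand: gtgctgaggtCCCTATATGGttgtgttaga
Acta2, chr19:34255388-34255417, minus strand: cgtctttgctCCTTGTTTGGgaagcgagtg

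The genes lie on 7 chromosomes of GRCm38. *Myh11* spans chr16:14194527-14292188 and *Mylk* chr16:34745199-35002436. *Myl9* spans chr2:156775408-156781657, *Acta2* chr19:34240336-34255585 and *Acta1* chr8:123891758-123894775. *Tpm1* spans chr9:67022590-67049672, *Cnn1* chr9:22099221-22109221 and *Tagln* chr9:45929628-45936058, and *Tpm2* spans chr4:43513726-43523583 and *Des* chr1:75360292-75368579. The libraries tag the 3′ ends of transcripts, so every value stands for reads near the last exon. For *Mylk* a short protein-coding transcript at chr16:34994807-35001363 lies at the 3′ end of the kinase gene, and its reads cannot be told apart from those of the kinase. The isoforms of both tropomyosins are likewise summed. *Mylk*, *Tagln*, *Des* and *Acta1* overlap annotated genes on the opposite strand, and whether the counting used strand is not given in the sources used here. Levels were not divided by length, so they are compared between cells and not between genes.

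In every one of the 10 genes the 2 muscle populations held the highest levels of the 12 groups of cells compared, and myofibroblasts and low-UMI stroma held places 3 and 4. Low-UMI stroma is the population deposited as StromalIL6, 319 cells with a median of 670 UMIs. Place 5 went to fibroblasts for 7 genes, to basal cells for *Tpm1*, to immune cells for *Acta1* and to the stem-like vas stroma for *Cnn1*. The counting intervals of places 1 and 2 overlapped for 0 genes and those of places 3 and 4 for 2, *Tpm1* and *Des*. Such intervals are narrow for genes with many UMIs. Places and overlaps were read for the 10 genes only, so no share over all genes stands beside these counts. Together the 10 genes took 9.68% of all UMIs in muscle 1 and 11.4% in muscle 2, against 2.61% in myofibroblasts, 2.48% in low-UMI stroma and 0.309% in fibroblasts. Their share was 0.131% in endothelial and 0.0505% in principal cells.

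The 7 muscle cells of the corpus, 5 of muscle 1 and 2 of muscle 2, stood apart from those of the other libraries. *Actg2*, the smooth muscle gamma actin, stood at 1107 UPM in them, beside 11951 in the muscle of the cauda and 16193 in that of the vas deferens. Vimentin (*Vim*), a filament gene of mesenchymal cells, stood at 9862 UPM against 3.94 in the muscle of the cauda, and all of its 98 UMIs were in the 2 cells of muscle 2. Markers of fibroblasts summed to 4644 UPM in the corpus cells of muscle 1, against 658 in those of the cauda, and to 0 in those of muscle 2. Markers of mural cells, a list of 8 genes for pericytes and vascular smooth muscle, summed to 1368 UPM in the corpus cells of muscle 2, against 259.9 in those of the cauda. Their part in the corpus values was not tested.

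**Figure D1:**
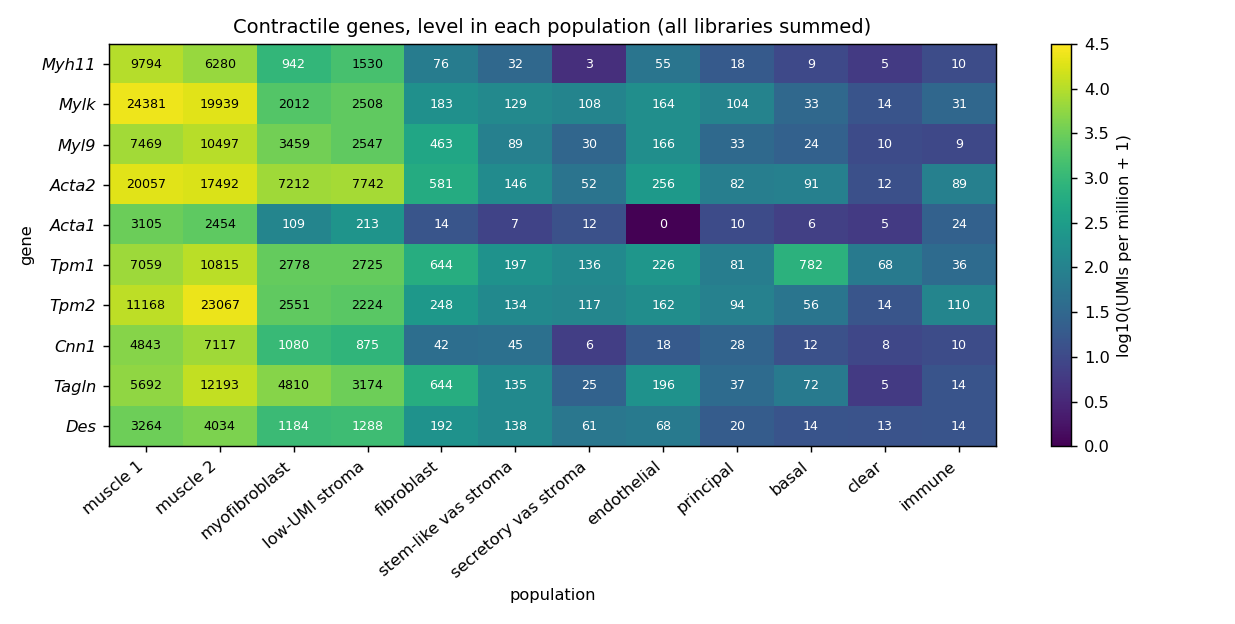
Level of each gene (rows) in 12 groups of cells (columns), with all libraries summed. Numbers are UPM and colour is log10 of that value plus 1. The left 2 columns, muscle 1 and muscle 2, hold the highest values in each row, the next 2 follow, and *Tpm1* in basal cells (782 UPM) is the highest value to the right of fibroblasts.

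The motor protein and its switch are described first. *Myh11* encodes the smooth muscle myosin heavy chain. Its level in myofibroblasts was 941, 768, 1013 and 1336 UPM from caput to vas deferens. Muscle cells held 2013, 5163 and 7381 UPM in corpus, cauda and vas deferens, so each muscle library lay above each myofibroblast library. Within the cauda the ratio of muscle to myofibroblasts was 5.10 (4.66 to 5.57) and within the vas deferens 5.52 (5.14 to 5.94).

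*Mylk* encodes myosin light chain kinase. In myofibroblasts its level was 2629.8, 1720.3, 1734 and 2404 UPM from caput to vas deferens. Muscle cells held 4629, 13671 and 22386 UPM in corpus, cauda and vas deferens, with no overlap between the groups. The ratio was 7.88 (7.40 to 8.40) within the cauda and 9.31 (8.83 to 9.82) within the vas deferens. *Mylk* took 18.8% of the UMIs of the 10 genes in muscle and 7.70% in myofibroblasts, so its weight within the group also differed.

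*Myl9*, the regulatory light chain that the kinase phosphorylates, differed less. Myofibroblasts held 4183, 2695, 4084 and 3867 UPM from caput to vas deferens. Muscle cells held 13686, 12684 and 9306 UPM in corpus, cauda and vas deferens. The ratios were 3.11 (2.96 to 3.26) in cauda and 2.41 (2.30 to 2.52) in vas deferens. The groups did not overlap, and unlike *Mylk* and *Myh11* its level in muscle was lower in the vas deferens than in the cauda.

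Among the actins, *Acta2* encodes the smooth muscle alpha actin. Its level in myofibroblasts was 10781, 5873, 7433 and 6187 UPM from caput to vas deferens. In muscle it was 21234, 22048 and 17163 UPM in corpus, cauda and vas deferens, each above the highest myofibroblast library, the caput. The ratio was 2.97 (2.86 to 3.08) in cauda and 2.77 (2.68 to 2.87) in vas deferens. *Acta2* made up 27.6% of the UMIs of the 10 genes in myofibroblasts, the largest part of any, and 16.3% in muscle.

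*Acta1* encodes skeletal muscle alpha actin and separated the populations most. Myofibroblasts held 141, 94.4, 121 and 93.7 UPM from caput to vas deferens. Muscle cells held 1601 UPM in cauda and 2801 in vas deferens. The 7 muscle cells of the corpus had 0 UMIs of *Acta1*, which allows a level of up to 302 UPM, so the groups overlapped through these cells alone. Here and below, the limit given for a count of 0 is the level that 3 UMIs would have. The ratio was 13.2 (10.6 to 16.7) in cauda and 29.9 (23.0 to 39.6) in vas deferens, and the 2 intervals did not overlap.

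The tropomyosins *Tpm1* and *Tpm2* encode rod-like proteins that control access of myosin to actin. *Tpm1* in myofibroblasts stood at 2686, 2602, 3572 and 2353 UPM from caput to vas deferens, and in muscle at 4830.4, 7983 and 10529.8 UPM in the corpus, cauda and vas deferens. *Tpm2* in myofibroblasts stood at 3286, 1913, 3058 and 2751 UPM in the same order from caput to vas deferens. In muscle *Tpm2* stood at 6038, 23073 and 20345 UPM in corpus, cauda and vas deferens. For both genes each muscle library lay above each myofibroblast library. The ratio for *Tpm2* was alike in both regions with many muscle cells, 7.54 (7.19 to 7.91) in cauda and 7.40 (7.04 to 7.77) in vas deferens. For *Tpm1* it was 2.23 (2.11 to 2.37) in cauda and 4.47 (4.24 to 4.73) in vas deferens.

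*Cnn1* encodes calponin, an actin-binding protein of differentiated smooth muscle. Its level in myofibroblasts was 1121, 745, 1770.04 and 1067 UPM from caput to vas deferens. Muscle cells held 1509.5, 6563 and 6726 UPM in corpus, cauda and vas deferens, so only the 7 corpus cells fell within the range of myofibroblasts. The ratio was 3.71 (3.45 to 3.98) in cauda and 6.31 (5.82 to 6.84) in vas deferens.

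*Tagln* encodes transgelin, an actin-bundling protein of smooth muscle. In myofibroblasts it stood at 4382, 2935, 9774 and 4133 UPM from caput to vas deferens. In muscle it stood at 11472, 13619 and 10351 UPM in corpus, cauda and vas deferens. The groups did not overlap, yet cauda myofibroblasts came close to vas deferens muscle, and the ratio within the cauda, 1.39 (1.34 to 1.45), was the lowest of the 10 genes. Within the vas deferens it was 2.50 (2.40 to 2.61). With the libraries pooled, *Tagln* stood at 5692 UPM in muscle 1 and 12193 in muscle 2, against 4809.8 in myofibroblasts.

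*Des* encodes desmin, the intermediate filament of muscle. Its level in myofibroblasts was 1431, 719, 2257 and 777 UPM from caput to vas deferens. Muscle cells held 2113, 4398 and 3791 UPM in corpus, cauda and vas deferens, so the 7 corpus cells fell below cauda myofibroblasts. The ratio was 1.95 (1.81 to 2.10) in cauda and 4.88 (4.44 to 5.37) in vas deferens. As with *Tagln*, the smaller ratio in the cauda went with a higher level in cauda myofibroblasts.

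**Figure D2:**
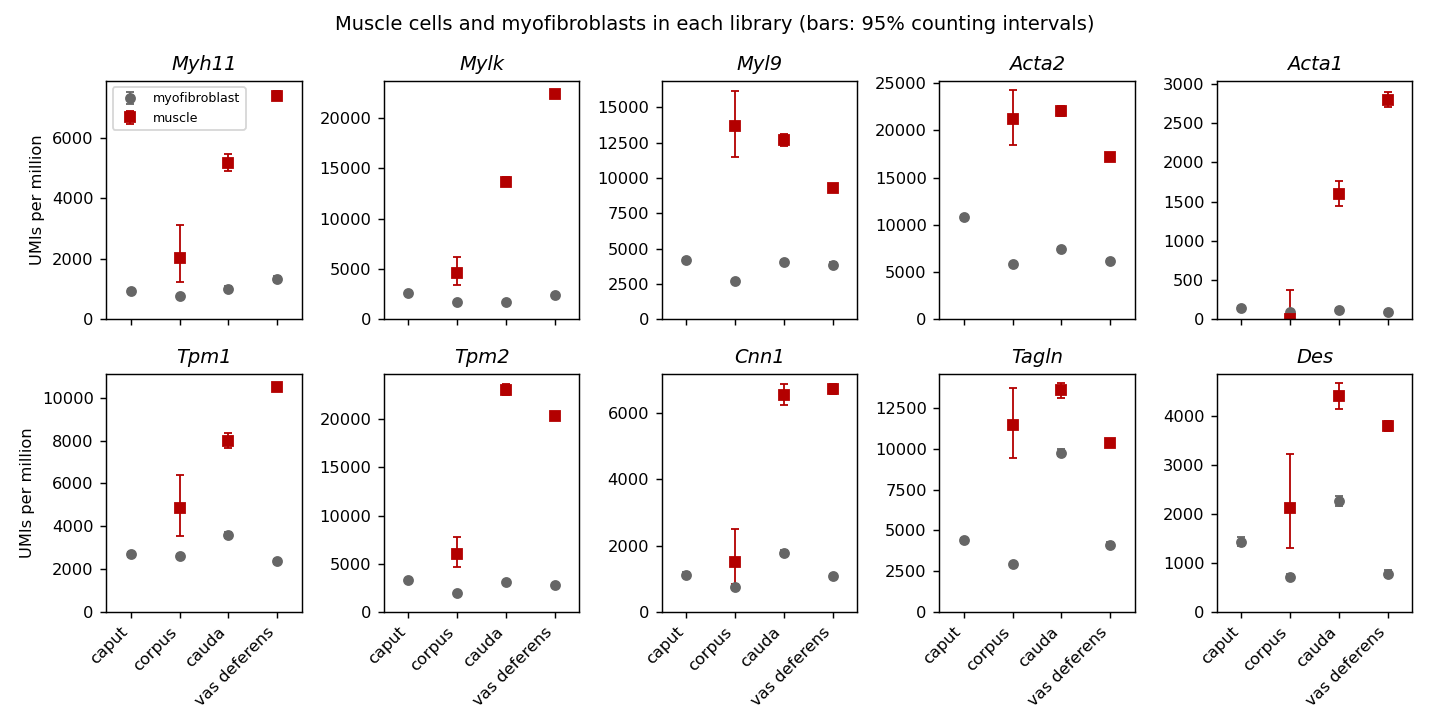
Level of each gene in UPM (vertical axes, each from 0) in the muscle cells (squares) and myofibroblasts (circles) of each library (horizontal axes), with 95% counting intervals. The caput library has no muscle cells and the corpus library 7. The muscle cells of the cauda and vas deferens lie above every myofibroblast library for each of the 10 genes.

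Set side by side, all 10 genes were at least 2 times higher in muscle than in myofibroblasts with the libraries pooled, against 14.4% of 9655 genes that had at least 20 UMIs in either population. Within the vas deferens, which gave 437 of the 502 muscle cells, this held for 10 of 10 genes against 18.6% of genes, and within the cauda, with 58 muscle cells, for 8 of 10 against 8.58%. None of the 10 was at least 2 times lower in either, against 17.1% of genes in the vas deferens and 26.4% in the cauda, nor with the libraries pooled, against 22.1%. In the cauda *Tagln* and *Des* stayed under 2. The median ratio of the 10 genes was 3.41 in cauda and 5.20 in vas deferens, beside 0.825 and 1.03 over all genes. With the muscle cells of the cauda and vas deferens set against myofibroblasts of all 4 libraries, the levels did not overlap for 10 of 10 genes, against 16.5% of genes. Counting also the 7 muscle cells of the corpus, they did not overlap for 7 of 10, against 5.95% of genes. Several of the 10 genes served the study to name both kinds of cells, so these shares describe the populations and do not test them.

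**Figure D3:**
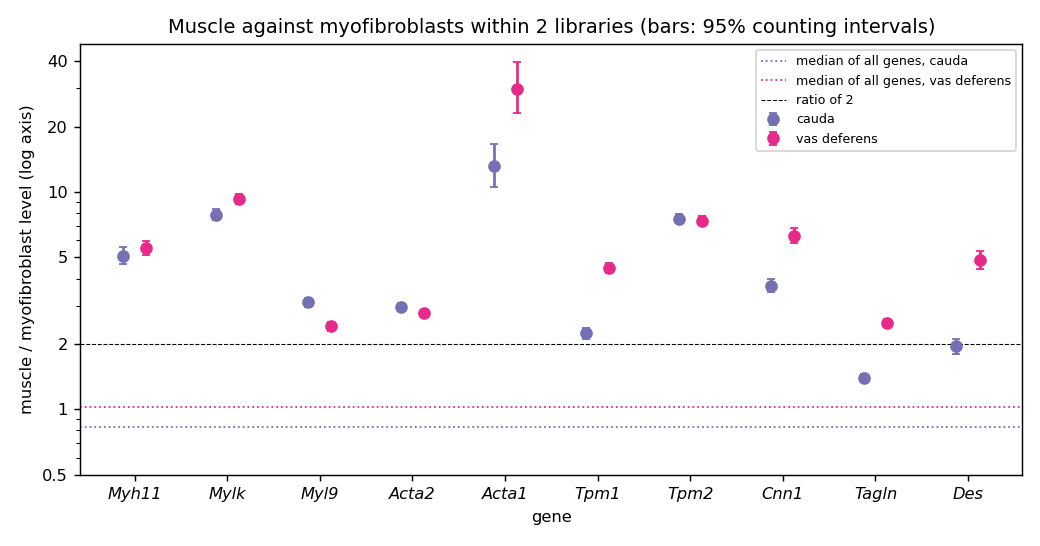
Ratio of the level in muscle to that in myofibroblasts (log axis) for each gene within the cauda and within the vas deferens, with 95% counting intervals. Dotted lines mark the median ratio of all genes (0.825 and 1.03) and the dashed line a ratio of 2. *Acta1* has the highest ratio in both libraries, and *Tagln* and *Des* lie under 2 in the cauda.

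Summed over the 10 genes, the pooled ratio was 4.23 (4.19 to 4.26), with values of 3.18 (3.13 to 3.24) within the cauda, 4.44 (4.36 to 4.51) within the vas deferens and 3.37 (3.11 to 3.63) for the few cells of the corpus. In muscle the 10 genes took 11.08% of UMIs in both the cauda and the vas deferens. The lower ratio of the cauda came with a higher share in its myofibroblasts, 3.48% against 2.50% in those of the vas deferens. Genes of ribosomal proteins, which enter the same total, took 11.5% of UMIs in muscle and 19.3% in myofibroblasts. Markers of fibroblasts, a list of 7 genes, summed to 3390.1 UPM in myofibroblasts, 26330 in fibroblasts, 654 in muscle 1 and 351 in muscle 2.

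The 2 muscle populations differed in which of the genes they held, and not in 1 direction. *Tagln* was 2.14 (2.04 to 2.25) times and *Tpm2* 2.07 (1.99 to 2.14) times as high in muscle 2 as in muscle 1, so 2 of 10 genes were at least 2 times higher, against 9.64% of genes. None of the 10 was at least 2 times lower, against 18.3% of genes. *Myh11* was the lowest at a ratio of 0.641 (0.614 to 0.669), followed by *Acta1* at 0.790 (0.734 to 0.851), *Mylk* at 0.818 (0.797 to 0.839) and *Acta2* at 0.872 (0.848 to 0.897). The median ratio over all genes was 0.705 pooled, 0.985 within the cauda and 0.733 within the vas deferens. Thus *Acta1*, *Mylk* and *Acta2*, though under 1, lay above the pooled median, and *Myh11* lay below it. The direction for *Tagln*, *Tpm2*, *Tpm1*, *Myl9* and *Cnn1* (higher) and for *Myh11*, *Acta1* and *Mylk* (lower) was the same within the cauda and within the vas deferens. For *Acta2* and *Des* the interval held 1 in the cauda, and the ratios in the vas deferens were 0.825 and 1.25, with intervals that did not hold 1. Cells of muscle 1 had a median of 1080.5 UMIs and those of muscle 2 of 5423.5, and ribosomal protein genes took 2.76% and 13.6% of their UMIs. The part of depth in these ratios was not tested.

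Muscle cells of the cauda and of the vas deferens held each of the genes within 2 times of each other. None of the 10 was at least 2 times higher in the cauda, against 1.46% of genes, and none at least 2 times lower, against 16.7%. *Acta1* (0.572, 0.515 to 0.634), *Mylk* (0.611, 0.589 to 0.633), *Myh11* (0.699, 0.660 to 0.741) and *Tpm1* (0.758, 0.723 to 0.795) were lower in the cauda. *Myl9* (1.36, 1.31 to 1.42), *Tagln* (1.32, 1.27 to 1.37) and *Acta2* (1.28, 1.25 to 1.32) were higher there. So were *Des* (1.16, 1.09 to 1.24) and *Tpm2* (1.13, 1.10 to 1.17), and *Cnn1* at 0.976 (0.925 to 1.03) had an interval that held 1. The median ratio over all genes was 0.878. All intervals cover counting error only, and with 1 library a region the spread between animals is not known.

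Of the 10 genes, *Tagln*, *Des* and *Cnn1* had the widest range over the myofibroblasts of the 4 libraries. The range from the lowest to the highest library was 3.33 times for *Tagln*, 3.14 times for *Des* and 2.38 times for *Cnn1*, and at most 1.84 times for the other 7. A range of at least 2 times was thus found for 3 of 10 genes, beside 30.2% of the 3623 genes that reached 20 UMIs in every library. That count is near the share over all genes, and the median range was 1.73 for the 10 genes and 1.69 for all. Cauda myofibroblasts held *Tagln* at 2.77 (2.69 to 2.85) times and *Des* at 2.49 (2.34 to 2.64) times the level of the other 3 libraries, 2 of 10 genes past 2 times against 2.34% of genes. In corpus myofibroblasts *Tagln* and *Des* were at least 2 times lower than in the other 3 libraries, again 2 of 10 against 9.27% of genes. All 10 ratios were under 1, with a median of 0.688, but the median over all genes was also under 1, at 0.866. *Tpm1*, at 0.893, lay above the median over all genes. The caput led for 5 genes, *Acta2* among them at 1.70 times the other 3 libraries, yet 0 of 10 passed 2 times, against 4.23% of genes.

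Between the vas deferens and the whole epididymis, myofibroblasts showed no member past 2 times, 0 of 10 higher against 6.32% of genes and 0 of 10 lower against 10.5%. *Myh11* was highest in the vas deferens at 1.54 (1.42 to 1.66) times the epididymis, and *Des* lowest at 0.617 (0.560 to 0.679). Markers of mural cells summed to 1374 UPM in the myofibroblasts of the vas deferens, against 159 (cauda) to 282 (corpus) in the epididymal libraries. Their part in the difference of *Myh11* was not tested.

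Per cell, the 2 populations overlapped little with libraries pooled, and most in the cauda. Each cell was thinned to 1000 UMIs drawn at random. This left out 139 shallower muscle cells, 122 of them of muscle 1, and 96 myofibroblasts. The 10 genes then gave a median of 94 UMIs per cell in muscle 1 and 113 in muscle 2, with a median of 10 of the 10 genes seen in a cell. A myofibroblast had a median of 19 such UMIs (5th to 95th percentile, 1.9 to 61) and 6 of the 10 genes. Over libraries that median was 27, 13, 29 and 23 from caput to vas deferens. The 84 cells of low-UMI stroma that were deep enough, with 235 left out, had a median of 22. Of 879 myofibroblasts, 36 (4.10%, 2.88% to 5.63% by the Clopper-Pearson method) reached 64 UMIs, the 5th percentile of muscle. That interval is for counting the pooled cells and does not cover the spread between libraries. By library these were 19 of 150 (12.7%) in the cauda and 9 of 373 (2.41%) in the corpus. The caput had 7 of 165 (4.24%) and the vas deferens 1 of 191 (0.524%), and 0 of the 36 were called doublets.

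**Figure D4:**
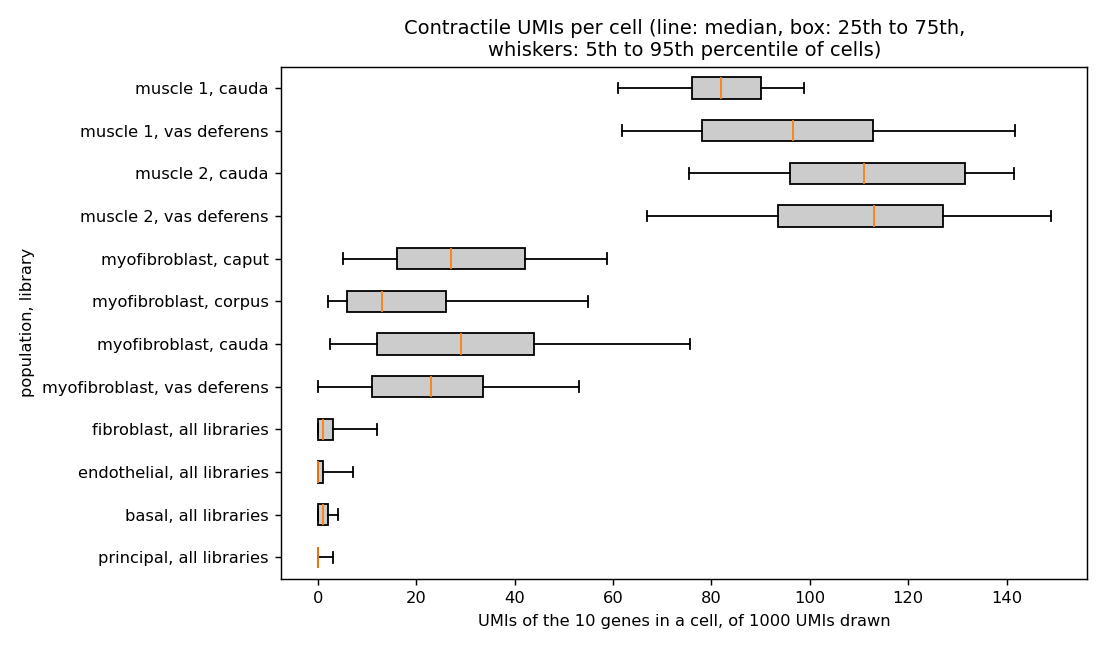
UMIs of the 10 genes in a cell out of 1000 drawn (horizontal axis) for populations and libraries (rows). Lines are medians, boxes run from the 25th to the 75th and whiskers from the 5th to the 95th percentile of cells. Myofibroblasts, with medians of 13 to 29, lie between the muscle populations and the fibroblasts, endothelial, basal and principal cells drawn, which have medians of 0 or 1.

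Genes differed in how many myofibroblasts showed them. After thinning, *Acta2* was seen in 87.0% of myofibroblasts, *Myl9* in 81.2%, *Tpm1* in 78.4% and *Tagln* in 71.6%. *Des* was seen in 47.8%, *Myh11* in 47.1%, *Cnn1* in 43.9% and *Acta1* in 4.55%. In the 2 muscle populations the first 4 were seen in 95.7% to 100% of cells and *Acta1* in 78.6% and 72.6%. Principal cells, which should lack *Acta2*, showed it in 3.70% after thinning, with a median depth of 934.5 UMIs before thinning against 3821 in myofibroblasts. Without thinning *Acta2* was seen in 85.9% of myofibroblasts and 4.45% of principal cells.

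Splitting the thinned myofibroblasts by the number of members seen gave 158 cells with 0 to 3, 425 with 4 to 7 and 296 with 8 to 10. The split uses the members themselves, so only other genes are given. *Actg2* stood at 40.6 UPM in the first, 256 in the second and 1851 in the last set, and *Cald1*, which encodes the actin-binding protein caldesmon, at 962, 1631 and 2759. The fibroblast markers summed to 3565, 3772 and 2849 UPM, and collagen 1 alpha 1 (*Col1a1*) stood at 496, 427 and 263. In the caput both were lowest in the first set, the markers at 1443, 3422 and 2863 UPM and *Col1a1* at 0, 318 and 173. *Rgs5*, a pericyte gene, stood at 289, 141 and 14.4 UPM, but at 0, 48.6 and 19.9 in the caput, so its order was not that of every library. Basal and glial markers were also highest in the first set, with basal markers at 86.6, 8.94 and 3.43 UPM and glial markers at 62.7, 2.79 and 2.06. Immune markers were not, at 5.53, 6.71 and 2.74 UPM. In the first set basal markers reached 509 UPM in the caput and glial markers 400.3 in the vas deferens. Their part was not tested. *Tnnt2*, the troponin T of heart muscle, stood at 7.37, 89.4 and 473 UPM. In each of the 4 libraries *Actg2* and *Tnnt2* were lowest in the first and highest in the last set. The median depth before thinning was 3309, 3927 and 4653 UMIs, and its part was not tested.

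Low-UMI stroma held the genes at 0.660 (0.616 to 0.706, *Tagln*) to 1.96 (1.47 to 2.57, *Acta1*) times their level in myofibroblasts. None of 10 was at least 2 times higher, against 5.14% of genes, and 0 of 10 at least 2 times lower, against 8.05%, counts that are not far from the shares over all genes. It joined cells of different clusters of the full dataset. Its 113 cells from the cluster that also gave 947 of the 975 myofibroblasts held the 10 genes at 3.73% of UMIs, with *Acta2* at 10573 UPM and *Myh11* at 2260.04. The other 206 cells, from a second stromal cluster, held them at 1.44%, with *Acta2* at 5379 UPM, *Myh11* at 920 and the matrix proteoglycan gene *Dcn* at 4804 UPM against 1525 in the former. In each of the 4 libraries the share of the 10 genes was higher in the cells of the myofibroblast cluster. Medians of 767 and 658.5 UMIs per cell show that both were shallow.

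Fibroblasts, 153 cells of the population deposited as Fibroblast, gave the lower reference. All 10 genes were at least 2 times higher in myofibroblasts, against 15.2% of genes, with ratios from 4.31 (3.88 to 4.81) for *Tpm1* to 25.9 (17.3 to 41.0) for *Cnn1*. Fibroblasts of the cauda held *Tagln* at 1046 UPM and *Acta2* at 790 (74 cells), against 151 and 342 in the corpus (36 cells) and 40.9 and 278 in the vas deferens (39 cells). The caput library had 4 fibroblasts with 0 UMIs of *Acta2*, which allows a level of up to 286 UPM. So the highest library for *Tagln* was the cauda in fibroblasts as in myofibroblasts, from the same pool of tissue.

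Outside the stroma and muscle, and with libraries pooled, *Tpm1* stood highest in basal cells, which ranked ahead of fibroblasts. Basal cells held it at 782 UPM, with 512, 897, 982 and 713 from caput to vas deferens, and 43.1% of thinned basal cells showed it. Basal cells held *Tpm2* at 56.1 and *Myh11* at 8.89 UPM. One population of principal cells, deposited as PC01, held *Tpm1* at 652 UPM and *Acta2* at 28.9. Together, the principal cells of the vas deferens held the 10 genes at 0.336% (*Myh11*) to 0.832% (*Tpm2*) of the muscle level there. Those of the cauda held them at 0.0822% to 0.503% of its muscle level. Of the principal populations, that deposited as PC13 stood highest for *Tpm2* (523 UPM), *Mylk* (470) and *Acta2* (394). RNA free in the suspension, of which the authors removed an estimate, can give low levels in principal cells, and its part was not tested. Of 1894 thinned principal cells, 2 showed 8 or more of the 10 genes, and both were called doublets.

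Among 200 thinned endothelial cells, 15 held at least 5 UMIs of the 10 genes per 1000 UMIs, a limit set after the values were seen. *Rgs5* was seen in 6 of these 15 and in 2 of the other 185. In the 15 cells *Rgs5* stood at 1441 UPM and *Notch3* and *Higd1b*, both genes of mural cells, at 271 each. The endothelial gene *Pecam1* stood at 83.5 UPM there (4 UMIs), against 695 in the 137 endothelial cells with 0 UMIs of the 10 genes. Of the 15 cells, 7 came from the caput, 4 from the corpus and 4 from the vas deferens, and 1 was called a doublet. The endothelial population of the caput had the highest *Acta2* of the 4, 876 UPM, against 286 in the corpus, 66.9 in cauda and 83.6 in vas deferens.

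Contraction needs further genes, and a list of 62 of them in 8 groups was compared in the same way. Of 57 with at least 20 UMIs in either population, 31 were at least 2 times higher in muscle, 11 at least 2 times lower and 15 within 2 times, beside 14.4% higher and 22.1% lower over all genes. Without the corpus muscle cells these counts were 31, 12 and 14. Within the vas deferens 31 of 54 were higher and 9 lower, beside 18.6% and 17.1% of genes, and within the cauda 24 of 48 and 9, beside 8.58% and 26.4%. Most myofibroblasts came from the caput and corpus and most muscle cells from the vas deferens, so values within libraries are given below.

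The receptor channel *P2rx1*, gated by ATP, through which nerves contract the vas deferens, had the highest ratio of the 57 with libraries pooled. It stood at 505 UPM in the muscle and 12.7 in the myofibroblasts of the cauda, and at 815 and 18.1 in those of the vas deferens. The ratios were 39.6 (20.9 to 84.6) and 45.1 (25.1 to 90.6), against 126 pooled, where *P2rx1* had 0 UMIs in the myofibroblasts of the caput and 2 in those of the corpus. *Chrm2*, a muscarinic receptor, had 7 UMIs in the muscle of the cauda, 29 in that of the vas deferens and 0 in myofibroblasts, at least 30.2-fold higher against a floor of 3 UMIs over all myofibroblasts. Against that floor within the vas deferens alone it was at least 4.66-fold higher. *Ednra*, an endothelin receptor, was lower in the muscle of the vas deferens, with a ratio of 0.230 (0.180 to 0.292), and had an interval that held 1 in the cauda (0.830, 0.494 to 1.34). *Ryr2*, a calcium release channel, had a ratio of 7.24 (3.20 to 20.2) in the vas deferens, and in the cauda 11 UMIs in muscle and 0 in myofibroblasts. *Cacna1c*, the L-type calcium channel, had ratios of 3.66 (2.20 to 6.48) in the vas deferens and 8.77 (3.30 to 27.2) in the cauda. The cauda values of both channels rest on under 20 UMIs. Pooled, the ratios were 23.3 and 8.96.

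Within families the direction was not the same for each paralog. Among actins *Actg2* had a ratio of 11.9 (11.03 to 12.9) within the cauda and 24.6 (22.3 to 27.2) within the vas deferens. Of the cytoplasmic actins *Actb* was also higher, 2.11 (2.00 to 2.22) and 3.12 (2.98 to 3.27) times, while *Actg1* had intervals that held 1 in both libraries (0.926, 0.840 to 1.02, and 0.997, 0.913 to 1.09). Among thin filament proteins *Smtn*, *Cald1* and *Lmod1* were at least 2 times higher in muscle in both libraries, *Smtn* most with 6.65 (5.02 to 8.89) in cauda and 7.44 (5.86 to 9.58) in vas deferens. *Tpm4* (0.279 and 0.170) and *Tagln2* (0.0799 and 0.117) were at least 2 times lower in both, in contrast to *Tpm1*, *Tpm2* and *Tagln*. *Tpm3* (0.525 and 0.343) and *Cnn3* (0.545 and 0.329) passed 2 times lower in the vas deferens and not in the cauda. Among myosin chains *Myl6* was higher (2.15 and 2.47) and *Myl12a* lower (0.404 and 0.397) in both.

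Anchors and cytoskeleton genes were mostly higher in muscle. With libraries pooled 12 of 16 were at least 2 times higher, against 14.4% of genes, and 3 at least 2 times lower, against 22.1%. Of the higher genes, *Actn1* stayed under 2 in the cauda (1.42, 1.17 to 1.72) and *Itga7* in the vas deferens (1.63, 0.990 to 2.79). The small heat shock protein gene *Hspb6* had ratios of 27.1 (16.1 to 48.7) in cauda and 9.94 (7.56 to 13.3) in vas deferens, against 33.2 pooled. The intermediate filament gene *Synm* had ratios of 4.93 (4.02 to 6.06) and 10.5 (8.63 to 13.0), against 11.2 pooled. The 3 lower genes were *Cryab* (0.242 and 0.409), the integrin *Itga8* (0.0507 and 0.0297) and *Vim*. *Vim* had a pooled ratio of 0.121 that fell to 0.0421 without the corpus muscle cells, and was 0.00520 in cauda and 0.0317 in vas deferens. *Itga8* stood at 615 UPM in the myofibroblasts of the vas deferens and at 151 to 266 in those of the epididymis.

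**Figure D5:**
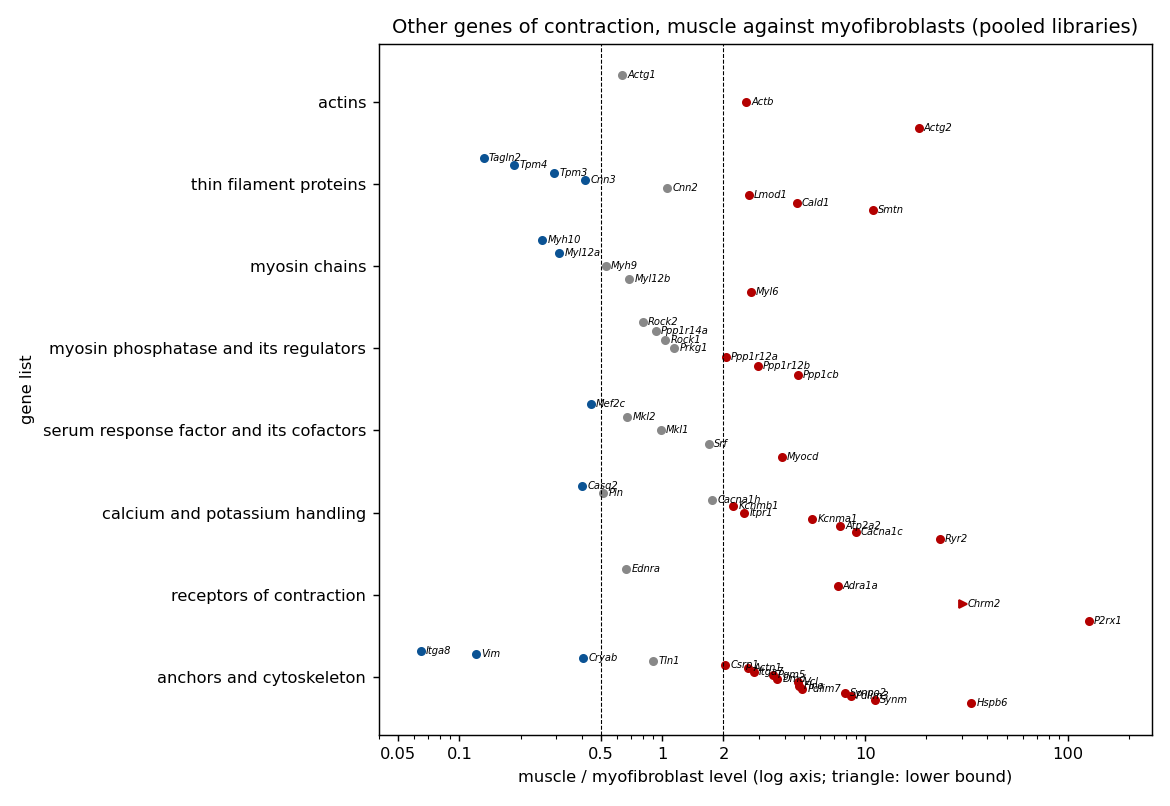
Ratio of the level in muscle to that in myofibroblasts (log axis, libraries pooled) for 57 further genes of contraction, in 8 lists (rows). Red points are at least 2 times higher in muscle, blue points at least 2 times lower, grey points between, and the triangle is a lower bound. The thin filament and myosin lists hold genes on both sides, with *Tagln2*, *Tpm4* and *Tpm3* (0.132 to 0.293) on the left and *Smtn* (10.9) on the right.

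Serum response factor and its cofactors did not differ in 1 direction. For *Myocd* and *Srf* the ratio was above 1 in the vas deferens, while its interval held 1 in the cauda, and the difference between libraries was not tested. *Myocd*, the cofactor of smooth muscle, stood at 70.6 UPM in the muscle of the vas deferens and 4.93 in its myofibroblasts, a ratio of 14.3 (4.74 to 70.7). In the cauda it stood at 19.7 UPM in muscle and 31.9 in myofibroblasts, a ratio of 0.619 (0.185 to 1.65) whose interval held 1. *Srf* had ratios of 2.59 (1.68 to 4.14) in the vas deferens and 0.917 (0.490 to 1.63) in the cauda. Pooled, these ratios were 3.88 and 1.70. The cofactors *Mkl1* (0.985, 0.537 to 1.73) and *Mkl2* (0.672, 0.437 to 1.01) had pooled intervals that held 1. *Mef2c*, a related factor, had ratios of 0.572 (0.332 to 0.992) in vas deferens and 0.221 (0.0255 to 0.877) in cauda. Counts were small, with 89 UMIs of *Myocd* in muscle and 3 in myofibroblasts of the vas deferens, and 5 and 25 in the cauda.

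*Acta1* is best known from skeletal muscle, and a list of 13 further skeletal and cardiac genes was read beside it. *Tnnc2*, the calcium-binding troponin of fast skeletal muscle, stood at 1451 UPM in the muscle of the cauda and 2837 in that of the vas deferens, against 1.19 to 34.5 UPM in myofibroblasts. *Ckm*, the muscle creatine kinase, stood at 714 UPM in cauda and 1077 in vas deferens. *Tnnt3*, a troponin T of fast muscle, stood at 85.2 UPM over all muscle cells. By contrast the skeletal and cardiac genes *Myh2*, *Myh6*, *Myh7*, *Ttn* and *Actn3* had 0 UMIs in muscle, which allows a level of up to 1.97 UPM each. *Mylpf* and *Mb* stood at 1.97 and 1.31 UPM. *Tnnt2* ran the opposite way, with 30.2 UPM in muscle and 225 in myofibroblasts, and within myofibroblasts with 354, 268, 96.8 and 108 from caput to vas deferens. *Tnni2* of the same list was also lower in muscle, at 1.31 UPM (2 UMIs) against 14.6 (56 UMIs) in myofibroblasts.

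Over the 34 populations the 10 genes varied alike. Pearson's r of each gene with the mean of the other 9, on log2 of UPM plus 1, ran from 0.773 for *Acta1* to 0.944 for *Myl9*. Of 12370 genes with at least 50 UMIs, those closest to the mean of the 10 were *Tspan2* (r = 0.928), *Mrvi1* (0.924), *Jph2* (0.923), *Itga1* (0.911), *Speg* (0.901), *Myom1* (0.898), *Flnc* (0.896), *Cacna1c* (0.896), *Rgs4* (0.895) and *Myocd* (0.891). *Jph2*, which encodes a protein that joins the surface membrane to the calcium store, stood at 391 UPM in muscle and 50.6 in myofibroblasts. *Tspan2*, a tetraspanin gene, stood at 281 and 60.5 UPM. For *Acta1* alone the closest genes were *Cnn1* (0.845), *Casq1* (0.840) and *Des* (0.840). *Casq1*, the skeletal calsequestrin of the calcium store, stood at 102 UPM in muscle and 5.21 in myofibroblasts. The 34 points share 4 libraries and differ in depth, so these correlations are a description.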

How the data were processed

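The authors aligned 10x Chromium 3′ reads to mm10 with HISAT2 2.0.4 after bcl2fastq, counted UMIs per gene, ignored reads aligning to several places, and removed estimated ambient RNA (3.54% of UMIs here). The deposited values are whole UMI counts per gene and cell, with the authors' population of each cell. The present work summed these counts by population and library. Ratios have exact conditional intervals, levels Poisson and shares Clopper-Pearson intervals, at 95%. A gene was called at 2 times the level with at least 20 UMIs in the higher group. Cells are not replicates and each region is 1 library, so no p-value is given. Named genes were all members, the 8 pathway lists, the marker lists and the genes of closest profile. Members, lists and limits were chosen with earlier results of these data known. Nearest-neighbour scoring against simulated doublets marked 178 cells (2.00%, 14 muscle, 20 myofibroblasts), which were kept except in 1 alternative. Libraries shared 43 barcodes. *Myh1*, *Myh4* and *Msln* of the marker lists were not analysed here. Tables were handled with pandas 2.3.3 and numpy 2.4.6 in Python 3.11.15, intervals came from scipy 1.17.1, doublet scores from scikit-learn 1.9.0 and plots from matplotlib 3.10.9. The fold rule was tested on simulated counts.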

Additional observations from a re-analysis of the deposited data

How the results depend on the processing

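The count of 10 of 10 genes at least 2 times higher in muscle than in myofibroblasts was 5 at a limit of 4 times and 9 or 10 under the others, with *Tagln* under 2 times for muscle 1 alone and without the corpus library. The summed ratio of 4.23 was 4.31 without called doublets, 3.86 with ribosomal protein genes out of the total, 4.43 as a mean over cells, 3.70 for muscle 1 alone and 4.36 for muscle 2 alone, and ran from 3.59 to 4.62 with 1 library left out. None of the 10 genes was at least 2 times higher or lower in myofibroblasts of the vas deferens than in those of the epididymis. At a limit of 1.5 times, 1 of the 10 was higher, *Myh11*. *Des* was lower by more than that limit, with a ratio of 0.617 (0.560 to 0.679). The median share of myofibroblasts with a UMI of a member, 67.1%, was 50.1% at 500 UMIs, 75.3% without thinning, 47.5% for at least 2 UMIs, and ran from 62.8% to 71.1% with 1 library left out. The 2 alternatives chosen after seeing the data, leaving out shared barcodes (ratio 4.22, share 67.3%) and the corpus muscle cells (ratio 4.24), changed no call of the 10 genes. Without the corpus muscle cells 31 of the further genes of contraction were higher in muscle, as with them, and 12 lower against 11, with *Pln* added, and the ratio of *Vim* moved from 0.121 to 0.0421. No paired analysis was possible because each region has 1 library and no test was made, and muscle and myofibroblasts of 1 library are set side by side only as ratios within it. Depth limits muscle of the corpus (7 cells) and genes under 20 UMIs.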
